A study of Mus musculus with 12 samples.

Results

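The genes described here are 40 mouse genes of the Atf4 stress response and of amino acid supply, taken by symbol from a list and read from a raw count table in all 12 libraries of the series. All 40 were among the 23337 symbols of the table, and all 40 passed the filter on low counts that left 12406 genes for testing. By role they comprised 6 transcription factors and co-factors, 6 stress effectors and feedback genes, 10 genes of asparagine, serine and one-carbon synthesis, 8 amino acid transporters, and 10 genes of protein folding and the unfolded protein response in the endoplasmic reticulum (ER).

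When amino acids run short or unfolded proteins build up in the ER, kinases phosphorylate the translation factor eIF2α; most protein synthesis then slows, while the mRNA of the transcription factor Atf4 is translated better. Atf4 switches on genes that make and import amino acids, charge tRNAs and, if stress goes on, favour cell death. ER chaperones are controlled mainly by other arms of the unfolded protein response, through Atf6 and the spliced form of Xbp1.

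The cells were NU1, normal mouse urothelial cells that had become immortal on their own during passaging. There were 4 groups of 3 libraries: proliferating cells with the hairpin shNT (labelled WT), proliferating cells with the hairpin sh4 (labelled Stag2-KD), and quiescent cells with either hairpin. Quiescent cultures had grown to confluence and had then received 1 µM rosiglitazone, an activator of the nuclear receptor PPARγ, with 0.5 µM erlotinib, an inhibitor of the EGF receptor kinase, and carried the label day 7. Stag2 is part of cohesin, which ties sister chromatids and forms DNA loops. All groups shared 1 cell line, a medium with EGF and lentiviral hairpins, and the knockdown rested on 1 hairpin. Confluence and both drugs came together, so their parts cannot be told apart. Each group held 1 library of experiments 5, 7 and 9; these numbers coincide with the labelled batches 3, 1 and 2, so experiment and batch cannot be told apart. Nothing beyond the experiment number states separate cultures, and p-values measure the spread between these libraries.

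Totals ran from 14524429 to 21987539 counts per library. Levels are given as CPM, the count over the TMM-scaled library total put on 1 common scale, and 3 values in a row belong to experiments 5, 7 and 9 in that order. Stag2 stood at 139, 145 and 113 CPM in proliferating control and 33.3, 24.9 and 24.6 CPM in proliferating knockdown cells. In quiescent cells it stood at 128, 126 and 107 CPM with the control and 9.43, 15.3 and 11.7 CPM with the Stag2 hairpin, so every library matched its label. The edgeR log2 fold change of Stag2 was -2.26 (SE 0.191, adjusted p 0.00121) in proliferating and -3.32 (SE 0.202, adjusted p 3.39e-05) in quiescent cells. The summed level of 18 urothelial and epithelial markers ran from 13000 to 23600 CPM, led by the keratins Krt8 and Krt18. The basal marker Trp63 had 0 counts in every library and the uroplakin Upk3a at most 1. The uroplakins Upk1a, Upk1b, Upk2 and Upk3b reached at most 3.94, 2.23, 1.45 and 8.91 CPM. Krt5 and Pparg reached at most 6.6 and 8.65 CPM, while Gata3, Foxa1 and Krt20 reached 118, 84.8 and 1740 CPM. Fibroblast, smooth muscle and endothelial markers summed to at most 2.27, 0.775 and 0.239 CPM. The immune list summed to between 15.5 and 33.2 CPM in proliferating control, 26.2 and 55.3 in proliferating knockdown, 39.6 and 61.8 in quiescent control, and 110 and 169 in quiescent knockdown libraries. Csf1r made up most of it, Ptprc was at most 0.408 CPM, and Cd3e was at 0. The part of this list in the results was not tested, and fewer cells that express a gene and less RNA per cell cannot be told apart in bulk RNA.

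Promoter windows of 300 bases around the start site (RefSeq, build GRCm38.p6) were found for 34 of the 40 members, and not for Eif4ebp1, Aldh1l2, Slc7a3, Slc7a5, Slc1a5 and Atf6. The letters TGATGNAA, the core of the element bound by C/EBP and Atf factors, were searched on both strands and occurred in 9 of 34 members (26.5%), against 4.51% of the 27025 genes with a window. The 9 were Atf3, Nupr1, Trib3, Chac1, Vldlr, Asns, Slc7a11, Slc1a4 and Herpud1. The ER stress response element, CCAAT and CCACG with 9 unspecified bases between them, occurred in the chaperone and isomerase genes Hspa5, Hsp90b1, Pdia6 and Calr (11.8% of members and 0.137% of all genes with a window). Its second form, ATTGG and CCACG with 1 unspecified base between them, occurred in Herpud1 (2.94% and 0.0444%) and did not overlap the core there. TGACGTGG, an element of Xbp1 and Atf6, occurred in 0 of 34 members (0.714% of all genes with a window). A match describes letters and not binding.

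The stretches below show these elements in Atf4 targets and in ER genes. A relation between a match and the counts was not tested. Matches are in capitals, each stretch reads 5′ to 3′ on the strand of its gene, TTGCATCA is the core read on the other strand, and in Calr the element lies on the other strand. Nupr1, Herpud1, Calr and Pdia6 were taken by a rule on the size of change, and Atf3, Chac1 and Slc7a11 were chosen after their values were seen. The Nupr1 stretch lies wholly in an annotated exon (GENCODE M21), and the others touch none.
Nupr1, chr7:126625562-126625591, minus strand: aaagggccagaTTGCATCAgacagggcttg
Atf3, chr1:191183390-191183489, minus strand: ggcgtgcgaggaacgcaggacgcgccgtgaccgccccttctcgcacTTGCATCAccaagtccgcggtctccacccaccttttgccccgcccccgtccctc
Chac1, chr2:119351003-119351102, plus strand: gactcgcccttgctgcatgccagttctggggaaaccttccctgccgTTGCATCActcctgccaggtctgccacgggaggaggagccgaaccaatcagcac
Slc7a11, chr3:50443617-50443716, minus strand: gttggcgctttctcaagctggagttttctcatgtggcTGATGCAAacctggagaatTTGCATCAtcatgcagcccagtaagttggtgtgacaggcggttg
Herpud1, chr8:94386302-94386401, plus strand: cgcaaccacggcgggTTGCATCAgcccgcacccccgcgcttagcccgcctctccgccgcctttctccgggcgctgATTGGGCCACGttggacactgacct
Pdia6, chr12:17266485-17266514, plus strand: cagagaCCAATGAAAGGCGGCCACGgcgtg
Calr, chr8:84847035-84847134, minus strand: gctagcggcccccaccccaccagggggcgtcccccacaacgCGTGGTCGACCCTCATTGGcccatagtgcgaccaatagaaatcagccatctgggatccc

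Per kilobase of exon, levels in proliferating control cells were highest for Calr, an ER chaperone of glycoproteins (265 CPM per kb), Atf4 itself (248), Phgdh, the first enzyme of serine synthesis (228), and Hsp90b1, the ER form of Hsp90 (215). They were lowest for Slc7a11, the cystine importer (3.53 CPM per kb), and Slc7a3, an importer of basic amino acids (4.49). Exons of 12 members overlap a gene on the other strand, among them Atf5, Cebpb, Ddit3, Psph, Shmt1, Shmt2 and Mthfd1. The use of strand in counting is not given in the sources used here, so reads of such pairs cannot be told apart.

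The widest differences among replicates lay between experiments in proliferating cells. In both proliferating groups the library of experiment 5 was the lowest of the 3 for 29 of 40 members (72.5%), against 26.6% of all tested genes, and the highest for 6 (15.0%), against 27.6%; this order was noticed in the values and carries no test. The 29 were all 6 transcription factors, 5 of 6 effectors, all 10 synthesis genes and all 8 transporters, and 0 of 10 ER genes, of which 5 were highest in experiment 5. In both quiescent groups experiment 5 was the lowest for 1 of 40 members, Mthfd1, against 12.8% of all tested genes. Experiment 5 was the highest there for 5 members (12.5%), against 14.2% of all tested genes, a share near that of all genes. The median ratio of the highest to the lowest library over the members was 2.82 in proliferating control and 2.29 in proliferating knockdown cells, and 1.47 and 1.48 in the quiescent groups, beside 1.43, 1.39, 1.33 and 1.32 over all genes.

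**Figure D1:**
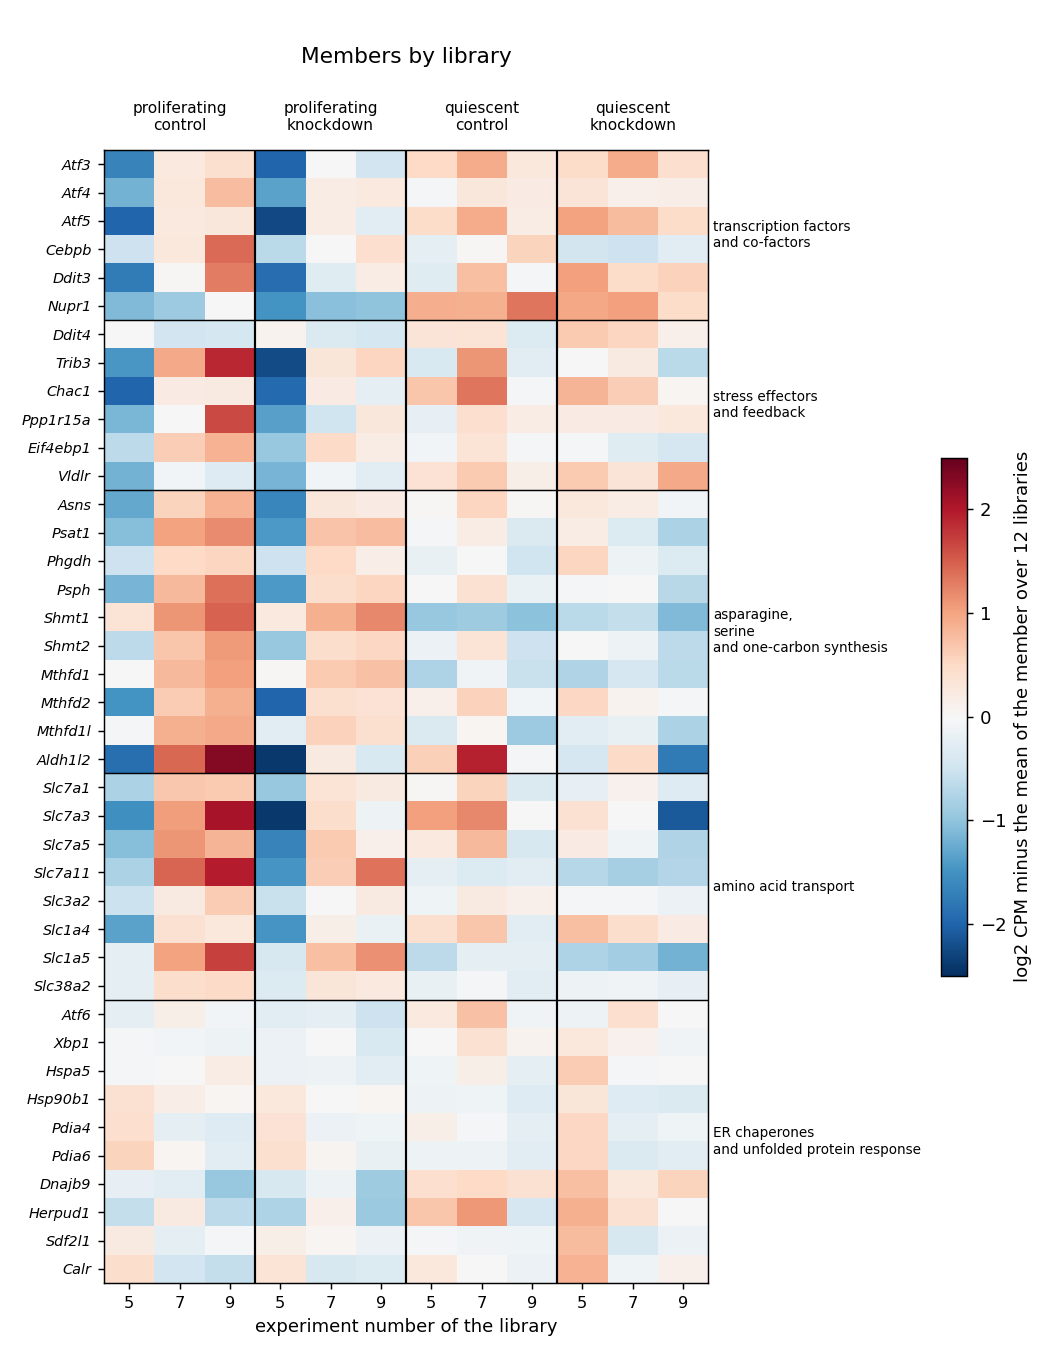
Level of each of the 40 members (vertical axis, grouped by role) in each of the 12 libraries (horizontal axis, by group and experiment), as log2 CPM minus the mean of that member over the 12 libraries, with blue below and red above that mean. The experiment 5 columns of both proliferating groups are blue for most members outside the ER group and pale or red for most ER members.

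Among the transcription factors, Atf4 stood at 232, 630 and 893 CPM in proliferating control and 208, 595 and 621 CPM in proliferating knockdown cells. In quiescent cells it stood at 503, 638 and 600 CPM with the control and 655, 573 and 585 CPM with the Stag2 hairpin. The 2 low libraries were both proliferating and both of experiment 5, and the 10 others lay within 503 to 893 CPM. Ddit3, the Chop factor that favours cell death under lasting stress, ran 13.3, 46 and 108 CPM in proliferating and 36.1, 75.1 and 43.2 CPM in quiescent control cells. Atf5, a factor translated in a manner like Atf4, ran 63.2, 295 and 302 CPM and then 341, 474 and 283 CPM. Atf3, induced early in stress, ran 9.76, 36.9 and 40.8 CPM and then 44.2, 59.5 and 37.4 CPM. For these 3 the experiment 5 library was the lowest by a wide margin in proliferating control cells. In quiescent control cells it lay within the span of the others for Atf5 and Atf3 and close below them for Ddit3. In quiescent knockdown cells it was the highest for Ddit3 (91.5, 61.4 and 66.6 CPM) and Atf5 (503, 430 and 343 CPM). Cebpb, a C/EBP factor of stress and differentiation, ran 28.1, 48.6 and 107 CPM in proliferating and 34.3, 41.3 and 58.9 CPM in quiescent control cells, and was highest in experiment 9 in all 4 groups.

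The effectors showed large spans. Trib3, a pseudokinase that dampens Atf4 output, stood at 33, 173 and 333 CPM in proliferating control cells, a ratio of 10.1 between experiments 9 and 5, and at 19.2, 111 and 130 CPM with knockdown. In quiescent control cells it stood at 68.9, 193 and 74.8 CPM, with experiment 7 the highest and a ratio of 1.09 between experiments 9 and 5. Chac1, which degrades glutathione, stood at 18, 82.5 and 83.8 CPM in proliferating and 116, 180 and 70.3 CPM in quiescent control cells. Ppp1r15a, the phosphatase subunit that reverses eIF2α phosphorylation, ran 28.5, 62.1 and 197 CPM and then 54.1, 83.5 and 71.7 CPM. Eif4ebp1, a brake on cap-dependent translation, ran 105, 251 and 299 CPM and then 156, 208 and 159 CPM. All of these were lowest in experiment 5 in proliferation. Ddit4, an inhibitor of mTORC1 signalling, was the effector highest in experiment 5, with 411, 298 and 303 CPM in proliferating control cells.

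Synthesis genes had the same order. Asns, asparagine synthetase, stood at 125, 443 and 555 CPM in proliferating control, 98.3, 371 and 348 CPM in proliferating knockdown, 311, 439 and 308 CPM in quiescent control and 366, 345 and 288 CPM in quiescent knockdown cells. Both proliferating libraries of experiment 5 lay below all 10 others, which spanned 288 to 555 CPM. Of the serine pathway, Phgdh, Psat1 and Psph had ratios between experiments 9 and 5 of 2.09, 4.75 and 5.83 in proliferating control cells and of 0.815, 0.798 and 0.901 in quiescent control cells. For the mitochondrial folate enzymes Shmt2 and Mthfd2 these ratios were 3.28 and 5.18, then 0.77 and 0.88. Each of these ratios was above 1 in proliferating and below 1 in quiescent control cells. For Mthfd1 the ratio was above 1 in both, at 2.03 and 1.15. Aldh1l2, a mitochondrial enzyme that oxidises formyl-tetrahydrofolate, had the widest ratio of the members in proliferating control cells, 18, with 5.16, 51.4 and 92.9 CPM. In proliferating knockdown cells it stood at 3.56, 22.2 and 14.6 CPM.

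All 8 transporters shared the low experiment 5 library in proliferation. Slc7a11 stood at 11.8, 56.1 and 79.8 CPM in proliferating control and 7.4, 31.3 and 52.7 CPM in proliferating knockdown cells. In quiescence it was nearly level between experiments, at 17.5, 16.3 and 17 CPM with the control and 12.6, 11.6 and 12.4 CPM with the Stag2 hairpin. Slc7a5, a carrier of large neutral amino acids, ran 103, 458 and 388 CPM in proliferating and 255, 377 and 163 CPM in quiescent control cells. Slc3a2, the chain that pairs with Slc7a5 and Slc7a11, ran 211, 359 and 472 CPM and then 284, 358 and 335 CPM. Slc7a1 and Slc1a4, carriers of basic and of small neutral amino acids, had ratios between experiments 9 and 5 of 2.73 and 3.04 in proliferating and 0.757 and 0.62 in quiescent control cells. Slc38a2, a sodium-coupled carrier of small neutral amino acids, had the narrowest such ratio of the transporters in proliferating control cells, 1.64.

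The ER genes had another order. Calr stood at 1140, 598 and 554 CPM in proliferating control, 1060, 635 and 664 CPM in proliferating knockdown, 1010, 832 and 762 CPM in quiescent control and 1540, 781 and 921 CPM in quiescent knockdown cells, so experiment 5 was the highest in all 4 groups. The disulfide isomerases Pdia4 and Pdia6 and the chaperone cofactor Sdf2l1 were also highest in experiment 5 in all 4 groups. Hspa5, the main ER chaperone BiP, ran 724, 742 and 842 CPM in proliferating control cells, a ratio of 1.16 between experiments 9 and 5. Xbp1 and Atf6, which drive chaperone genes, had ratios of 0.932 and 1.14 there, and Herpud1, a gene of ER-associated degradation, one of 0.961 with experiment 7 the highest.

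**Figure D2:**
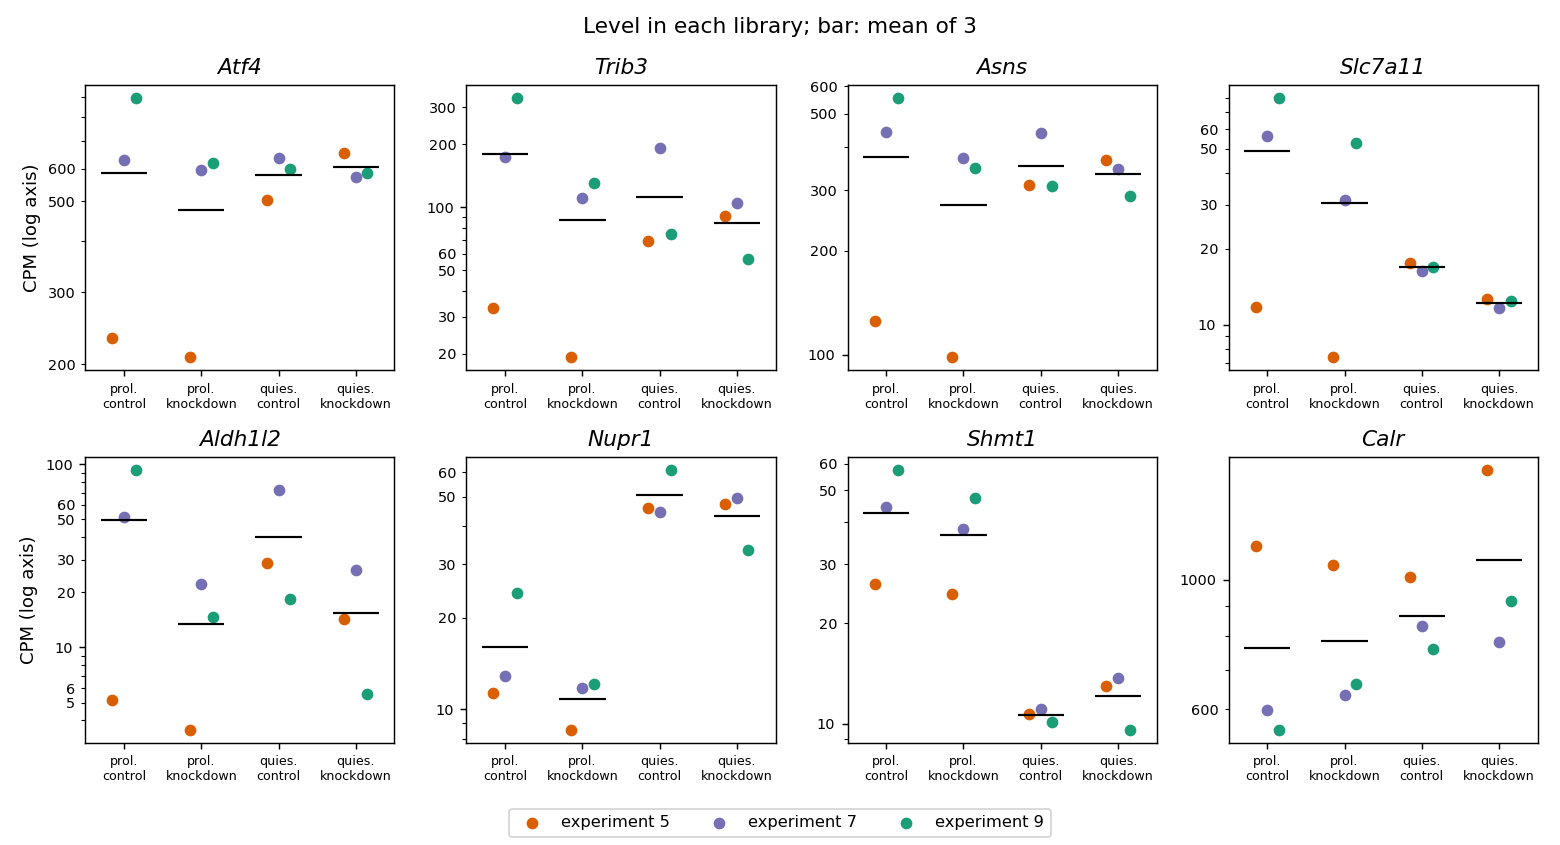
CPM on a log axis for 8 members in the 4 groups; points are single libraries coloured by experiment and bars are means of 3 libraries. Atf4, Trib3, Asns, Slc7a11 and Aldh1l2 have their lowest proliferating libraries in experiment 5, Nupr1 is higher and Shmt1 lower in all quiescent libraries, and Calr is highest in experiment 5 in every group.

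An edgeR test of experiment, with the 4 groups in the model, called 8 of 40 members (20.0%) at an adjusted p under 0.05, against 21.1% of all tested genes, a share near that of all genes. They were Cebpb, Ddit4, Mthfd1, Atf6, Pdia4, Pdia6, Herpud1 and Calr, of which 5 are ER genes. This model holds the same difference between experiments in all 4 groups. A difference that changes with state is averaged in it and adds to its spread, so the share does not speak to such differences. Calr differed by -0.72 on the log2 scale between experiments 9 and 5 (edgeR adjusted p 0.00447), Pdia4 by -0.56 (0.00535) and Cebpb by 1.00 (0.0224). The count was 22 without the quiescent knockdown library of experiment 5. It was 4 without either proliferating library of experiment 5, and 2 without the proliferating knockdown library of experiment 9. It was 5 without the proliferating control library of experiment 7 or any 1 of the quiescent control libraries. The shares of all tested genes in these fits are not given here, so these counts alone do not set the members apart.

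A test of whether the effect of quiescence differs between experiments was added after these values were seen, so it is no independent support for the order above. With 4 residual degrees of freedom, it called 25 of 40 members (62.5%), against 5.27% of all tested genes. Calls comprised 4 of 6 transcription factors (Atf3, Atf4, Atf5, Ddit3), 4 of 6 effectors (Trib3, Chac1, Ppp1r15a, Eif4ebp1), 9 of 10 synthesis genes (not Mthfd1, edgeR adjusted p 0.0615), all 8 transporters and 0 of 10 ER genes, of which 2 had an unadjusted p under 0.05. Of all 12406 tested genes, 3416 had an unadjusted p under 0.05 in this test. Slc7a11 had the smallest adjusted p, 0.00103, and its effect of quiescence in experiment 9 minus that in experiment 5 was -2.83 on the log2 scale. For Atf4 this difference was -1.73 (edgeR adjusted p 0.0104), for Asns -2.18 (0.00669) and for Trib3 -3.40 (0.00761). Without the proliferating control library of experiment 5 the count was 11 (27.5%, against 0.768% of all genes). Without all 4 libraries of experiment 5 it was 5 (12.5%, against 2.67% of all genes), and without those of experiment 9 it was 14 (35.0%, against 1.52%).

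Other genes of the pathway, from lists set beside the members, were read in the same test. Of 12 aminoacyl-tRNA synthetases that are Atf4 targets, 11 were called (91.7%), against 5.27% of all tested genes. Of 8 other cytosolic synthetases 1 was called (12.5%), and of 12 other tested Atf4 targets 8 (66.7%). Of 20 tested other ER folding and degradation genes 1 was called (5.00%), near the share of all genes. The same held for 1 of 14 genes of the eIF2α kinases and their control (7.14%). In both proliferating groups experiment 5 was the lowest for all 12 Atf4-target synthetases and 9 of the 12 other Atf4 targets. It was the lowest for 4 of 8 other synthetases, 7 of 14 eIF2α genes and 2 of 20 other ER genes. Over all tested genes this share was 26.6%. The lists were chosen with earlier results of these data known.

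With quiescence itself, Nupr1 and Dnajb9 rose and the cytosolic folate genes Shmt1 and Mthfd1 and the carrier Slc1a5 fell under both hairpins. In control cells 6 of 40 members were called (15.0%), against 20.0% of all tested genes; 2 were higher, as were 8.33% of all genes, and 4 were lower, as were 11.7%. The median log2 fold change over the 40 was -0.16, beside 0 over all genes, and within experiments 5, 7 and 9 it was 0.60, 0.07 and -0.79. Leaving out 1 library at a time gave medians of -0.51 to 0.16, and the sign turned without the proliferating control library of experiment 9. Of the members, 24 (60.0%) were higher with quiescence in experiment 5 and lower in experiment 9, against 13.0% of all genes. In knockdown cells 6 of 40 were called (15.0%), against 18.4% of all tested genes; 3 were higher, as were 7.59% of all genes, and 3 were lower, as were 10.8%. The median was 0.09, beside 0 over all genes, and 1.01, -0.10 and -0.32 within the experiments. With 1 library left out it ran from -0.11 to 0.33, and the sign turned without the proliferating (-0.11) or the quiescent (-0.04) knockdown library of experiment 5. With experiment as an added term in the model, the replicate block, 10 members were called in control cells (35.3% of all genes were) and 12 in knockdown cells (33.0% of all genes were). The block added Ddit4, Vldlr and Herpud1 (higher) and Hsp90b1 (lower) in control cells, and Atf3, Atf5, Ddit4, Atf6, Herpud1 and Calr (higher) in knockdown cells.

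**Figure D3:**
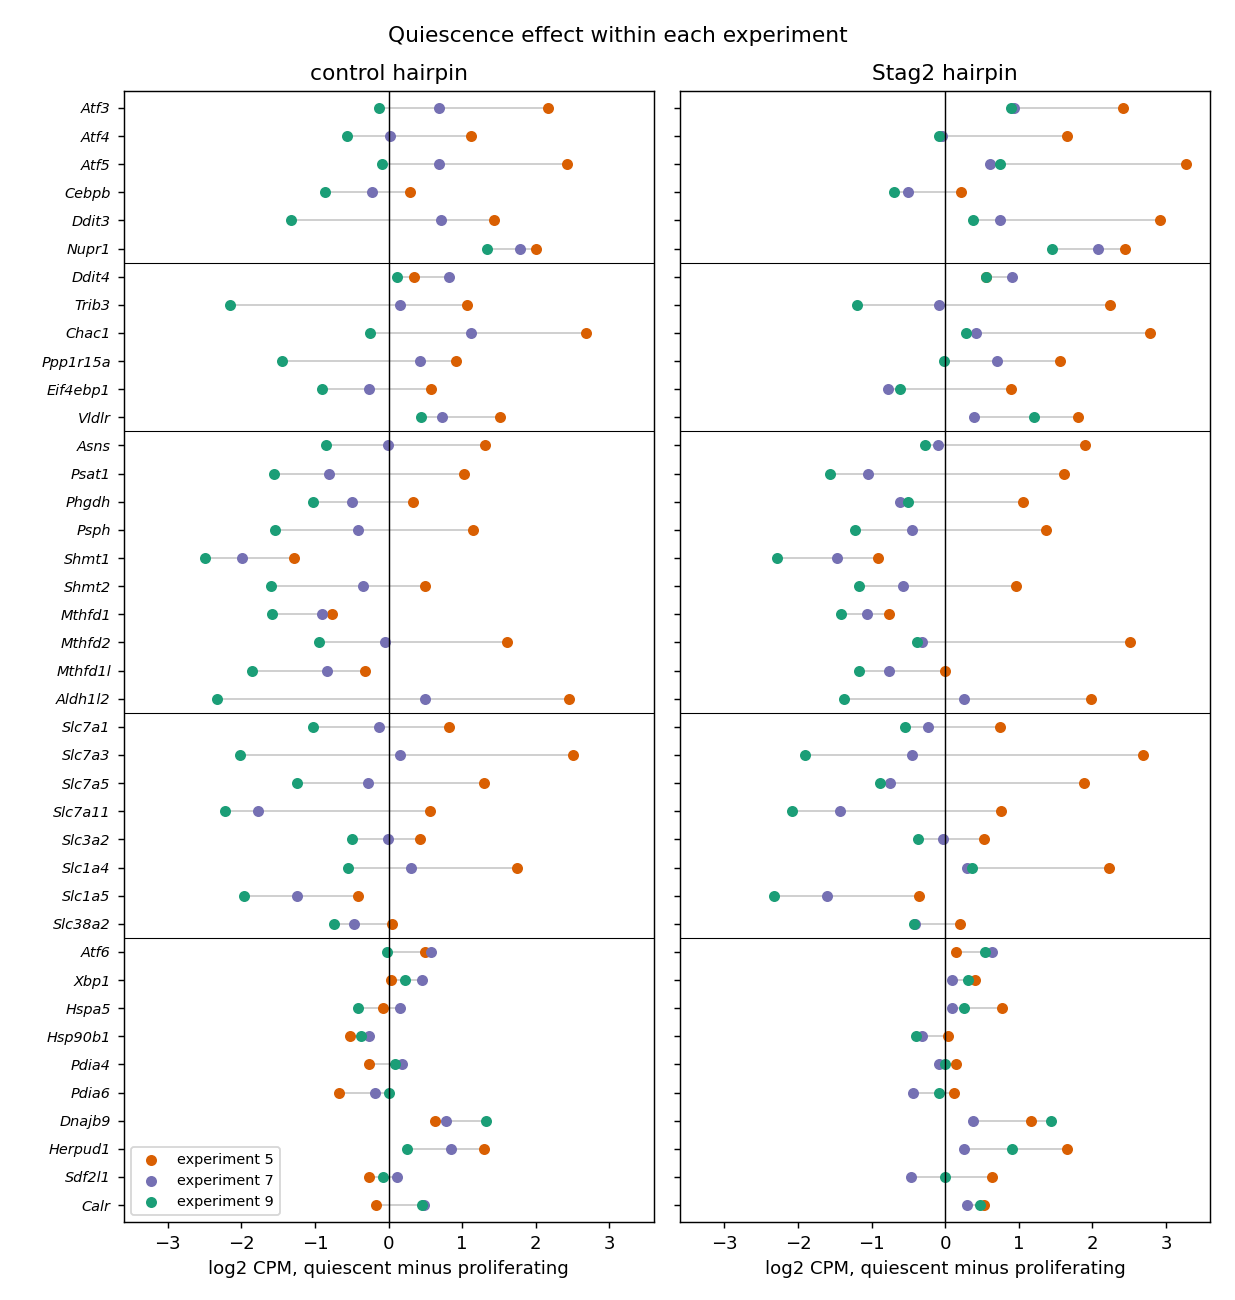
Difference in log2 CPM (horizontal axis) between the quiescent and the proliferating library of the same experiment for each member (vertical axis), with the control hairpin (left) and the Stag2 hairpin (right); points are experiments and the black line is 0. For 24 members with the control hairpin, experiment 5 lies above 0 and experiment 9 below, while Nupr1 lies above 0 and Shmt1 below 0 in all 3 experiments under both hairpins.

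Nupr1, a small stress-induced chromatin protein, stood at 11.3, 12.9 and 24 CPM in proliferating and 45.7, 44.6 and 61.1 CPM in quiescent control cells, and rose by 1.65 on the log2 scale (SE 0.282, edgeR adjusted p 0.00244). With the Stag2 hairpin it stood at 8.57, 11.7 and 12.1 and then at 47.1, 49.3 and 33.3 CPM, a rise of 2.00 (SE 0.287, adjusted p 0.00128). The states did not overlap and all 3 experiments moved the same way. Dnajb9, a co-chaperone of BiP, stood at 20.4, 19.3 and 12.3 CPM in proliferating and 31.7, 33.3 and 30.9 CPM in quiescent control cells, without overlap, and rose by 0.88 (SE 0.229, adjusted p 0.0204). In knockdown cells its rise was 0.97 (SE 0.229, adjusted p 0.0138). Vldlr, the very low density lipoprotein receptor, stood at 55.8, 119 and 103 CPM in proliferating and 195, 156 and 239 CPM in quiescent knockdown cells and rose there by 1.08 (SE 0.317, adjusted p 0.0359). In control cells its value was 0.84 (adjusted p 0.0824), and the interaction for Vldlr was 0.24 (SE 0.443, adjusted p 1).

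Of the genes that fell, Shmt1, the cytosolic serine hydroxymethyltransferase, stood at 26.1, 44.5 and 57.4 CPM in proliferating and 10.7, 11.1 and 10.1 CPM in quiescent control cells, a log2 difference of -2.00 (SE 0.3, edgeR adjusted p 0.00116). With the Stag2 hairpin it went from 24.5, 38.3 and 47.3 CPM to 13, 13.7 and 9.61 CPM (-1.60, SE 0.295, adjusted p 0.00417). Mthfd1, the cytosolic trifunctional folate enzyme, stood at 75.1, 132 and 152 CPM in proliferating and 44, 70.4 and 50.7 CPM in quiescent control cells (-1.12, SE 0.273, adjusted p 0.0153). Its difference with the Stag2 hairpin was -1.11 (adjusted p 0.0175), and for both genes the states did not overlap under either hairpin. Slc1a5, a carrier of glutamine and other neutral amino acids, stood at 39.8, 94.3 and 154 CPM in proliferating and 29.6, 39.5 and 39.4 CPM in quiescent control cells, without overlap (-1.41, SE 0.446, adjusted p 0.0463). With the Stag2 hairpin its difference was -1.56 (SE 0.45, adjusted p 0.0346). Mthfd1l, which makes formate in mitochondria, fell in control cells (-1.01, SE 0.318, adjusted p 0.0446) and had a value of -0.67 in knockdown cells (adjusted p 0.167). The mitochondrial enzymes Shmt2 and Mthfd2 had values of -0.60 and -0.08 in control cells, neither past the threshold.

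The calls of Nupr1 and Shmt1 held under both hairpins in all 12 fits that left out 1 library. Without all 4 libraries of experiment 7 no member was called in control cells, where edgeR gave Nupr1 an adjusted p of 0.0694 and Shmt1 one of 0.0553. The other calls did not: in control cells that of Dnajb9 held in 9 of these fits, Mthfd1 in 8, and Mthfd1l and Slc1a5 in 3 each. In knockdown cells that of Dnajb9 held in 11, Mthfd1 in 8, and Vldlr and Slc1a5 in 7 each. In control cells the count of called members was 2 without the proliferating library of experiment 9 or the quiescent library of experiment 5, and 3 without the proliferating library of experiment 7 or the quiescent library of experiment 9. In knockdown cells it was 2 without the quiescent library of experiment 5 and 3 without either library of experiment 9. Shares of all tested genes in the fits of this paragraph are not given here.

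Of the other pathway lists, Eif2s1, the eIF2α subunit itself, fell in control (-0.70, SE 0.161, edgeR adjusted p 0.0113) and knockdown cells (-0.57, adjusted p 0.0323). Qars, glutaminyl-tRNA synthetase, fell as well (-0.42, adjusted p 0.0347, and -0.57, adjusted p 0.00893). Impact, an inhibitor of the eIF2α kinase Gcn2, rose in knockdown cells (0.63, adjusted p 0.0151), as did Derl2 of ER-associated degradation (0.43, adjusted p 0.0152) and the ER oxidase gene Ero1lb (0.73, adjusted p 0.0431). These were all the calls without the replicate block. In control cells they were 1 of 14 eIF2α genes (7.14%) and 1 of 8 other synthetases (12.5%), against 20.0% of all tested genes. In knockdown cells they were 2 of 14 (14.3%), 1 of 8 (12.5%) and 2 of 20 other ER genes (10.0%), against 18.4%. Each share lay below that of all genes, so the counts set none of these lists apart. Among the 12 Atf4-target synthetases and the 12 other Atf4 targets, 0 were called under either hairpin, and with an unadjusted p under 0.05 there were 0 and 1 in control and 0 and 0 in knockdown cells. Of all 12406 tested genes, 4314 in control and 4089 in knockdown cells had an unadjusted p under 0.05.

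The replicate block changed some of these calls, and the genes it added are named here after their values were seen. Gdf15, a secreted stress cytokine among the other Atf4 targets, was called as higher under both hairpins with the block, by 1.17 in control (adjusted p 0.000505, and 0.0521 without the block) and 0.85 in knockdown cells (adjusted p 0.00345, and 0.187 without). In control cells the block called 3 of 14 eIF2α genes (21.4%), adding Eif2b3 (lower) and Impact (higher), and 4 of 8 other synthetases, adding Dars, Farsb and Kars (all lower), where 35.3% of all genes were called. In knockdown cells it called 2 of 8 other synthetases (25.0%), adding Kars (lower), and 3 of 20 other ER genes (15.0%), adding Syvn1 (higher), where 33.0% of all genes were called. The Atf4-target synthetases had 0 calls with the block as well.

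With Stag2 knockdown no member was called, and most values in proliferating cells were slightly negative. Neither the main fit nor that with the replicate block held the state by experiment term, so this variation stayed in their spread. Knockdown was not tested in the model with that term. In proliferating cells the count was 0 of 40, against 0.0242% of all tested genes, and 0 with the replicate block, where 0.0242% of all genes were called. At an unadjusted p under 0.05 there were 0 members without and 1 with the block, beside 228 and 645 of all 12406 tested genes. DESeq2 called 0 members and 12 of all genes. The median over the members was -0.30 beside 0 over all genes. Of the 40 values 34 were negative, beside 6263 of all 12406 tested genes. In all 3 experiments 29 members (72.5%) were lower, against 21.3% of all genes, a count with no test. By role the median was -0.55 for transcription factors, -0.29 for effectors, -0.39 for synthesis genes and -0.38 for transporters. For ER genes it was -0.06, and 4 of 10 were lower in all 3 experiments. The members share the same 3 pairs of libraries and are not replicates of each other. These control libraries also serve the quiescence comparison. The median over all 40 members was -0.16, -0.22 and -0.46 within experiments 5, 7 and 9. It was -0.68 without the proliferating control library of experiment 5 and -0.07 without that of experiment 9. Without the proliferating knockdown library of experiment 5 it was -0.09, and without that of experiment 7 it was -0.57.

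The largest values were those of Aldh1l2 (-1.89, SE 0.935, edgeR adjusted p 1), Slc7a3 (-1.41, SE 0.862, adjusted p 1) and Trib3 (-1.05, SE 0.778, adjusted p 1), whose groups overlapped. Slc7a3 stood at 2.69, 16 and 32.4 CPM in control and 1.46, 10.6 and 7.12 CPM in knockdown proliferating cells. Hspa5 was the member whose proliferating groups did not overlap, at 724, 742 and 842 CPM against 673, 677 and 619 CPM (-0.23, SE 0.183, adjusted p 1). How many of all tested genes separate in this way was not counted, so the lack of overlap does not set Hspa5 apart.

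In quiescent cells knockdown called 0 of 40 members, against 0.435% of all tested genes, and 0 with the block, against 3.55%. At an unadjusted p under 0.05 there were 0 members without and 1 with the block, beside 1489 and 2527 of all 12406 tested genes. DESeq2 called 0 members and 387 of all genes. The median was -0.05 beside 0.02 over all genes, and 0.23, -0.30 and -0.02 within experiments 5, 7 and 9. It was 0.13 without the quiescent control library of experiment 7 and 0.05 without the quiescent knockdown library of experiment 9. Aldh1l2 stood at 28.7, 72.6 and 18.4 CPM in control and 14.3, 26.4 and 5.57 CPM in knockdown quiescent cells, lower within every experiment but with overlapping groups (-1.37, SE 0.922, edgeR adjusted p 0.627). For Cebpb, Slc7a11 and Slc1a5 all knockdown libraries lay below the control ones, with values of -0.57, -0.47 and -0.55 (adjusted p 0.663, 0.848 and 0.7). Such separation was not counted over all tested genes, so it does not set these members apart. Of the other lists, Ero1lb, named here after its values were seen, was called with the block alone, with a value of 1.15 (SE 0.226, adjusted p 0.0571 without and 0.0114 with the block).

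**Figure D4:**
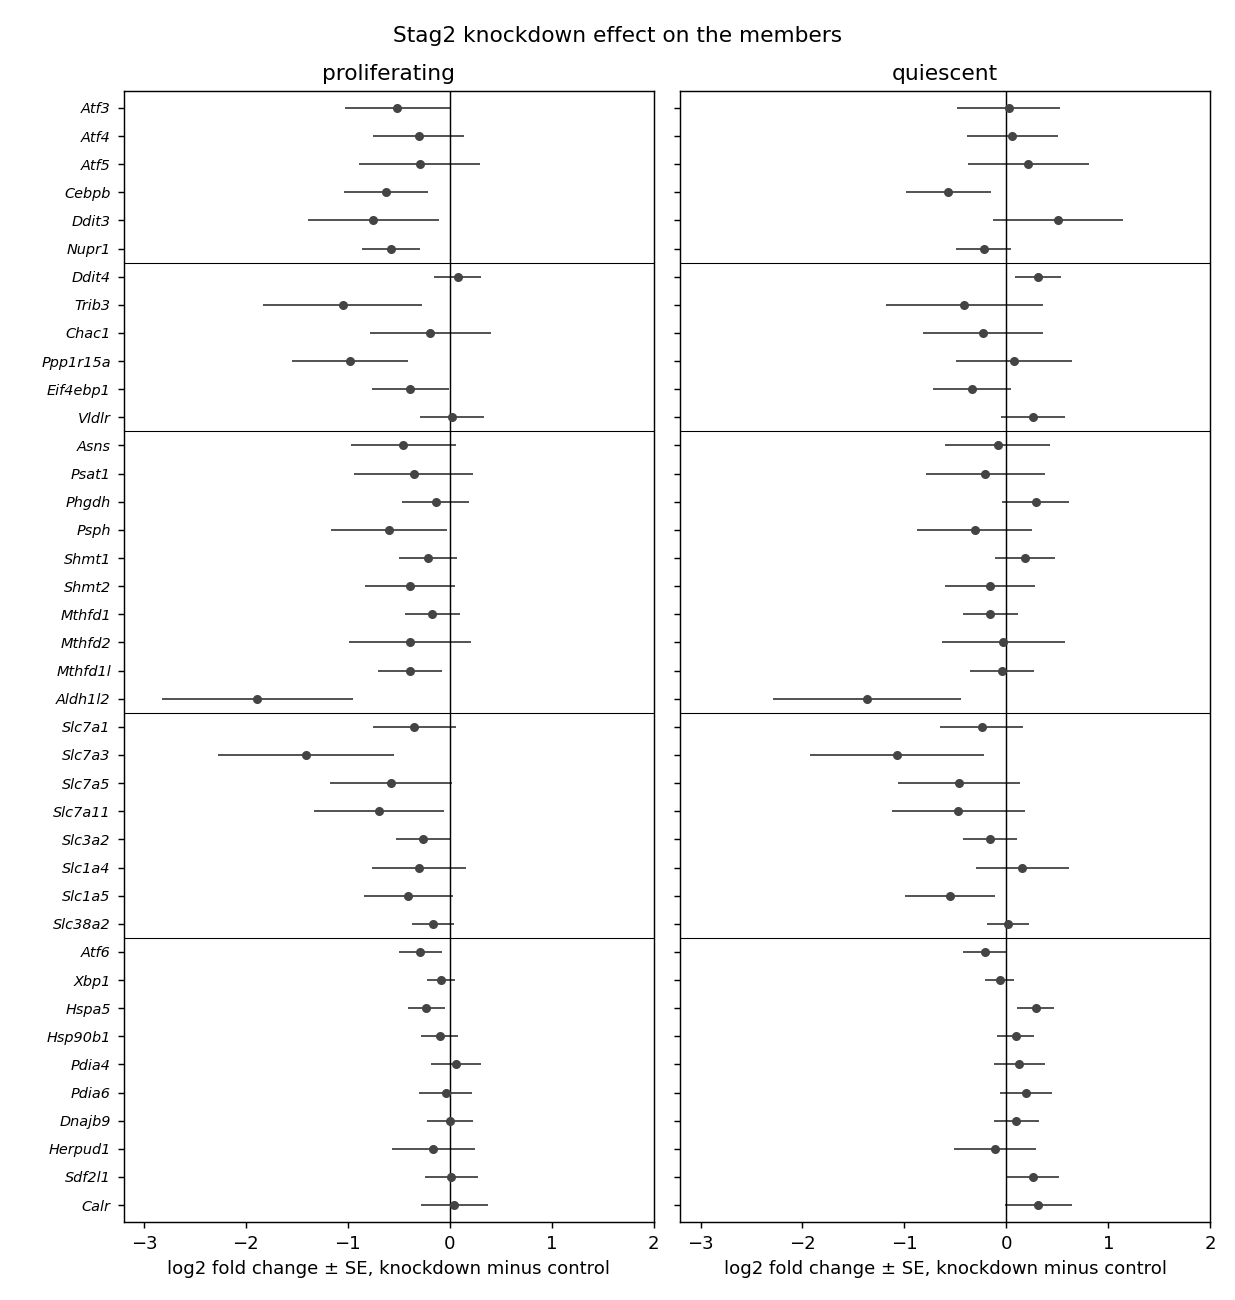
Log2 fold change of knockdown against control (horizontal axis, points) with its SE from edgeR (bars) for each member (vertical axis), in proliferating (left) and quiescent (right) cells, 3 libraries a group. No member was past the threshold in either state, and Aldh1l2 and Slc7a3 lie farthest below 0 in both.

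The interaction, that is, the quiescent minus the proliferating effect of knockdown, called 0 of 40 members and 0% of all tested genes, also with the replicate block. At an unadjusted p under 0.05 there were 0 members in either fit, beside 219 of all 12406 tested genes without and 590 with the block. DESeq2 called 0 members. Its median over the members was 0.24 and that over all genes 0.01, with 38 of 40 values positive, beside 6387 of all 12406 tested genes. These values come from the same libraries as the comparisons above. In all 3 experiments 9 members (22.5%) were positive, against 16.4% of all genes, a count with no test. Within experiments 5, 7 and 9 the median was 0.39, -0.14 and 0.39, so experiment 7 did not share the sign of the others. Leaving out 1 library at a time gave medians of 0.01 to 0.54, with 0.01 without the proliferating control library of experiment 9 and 0.05 without the proliferating knockdown library of experiment 5. The largest value was that of Ddit3, 1.26 (SE 0.903, edgeR adjusted p 1).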

How the data were processed

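Expression was measured in 12 libraries of polyadenylated RNA, made with a stranded kit from RNA that held ERCC spike-ins, per the labels' protocols; the table used here has 0 spike-in entries. The deposited values are raw counts per gene symbol, not normalized. The submitters' processing notes name mm10, Bowtie, TopHat, HTSeq and DESeq2 without roles; the annotation and the use of strand are not given in the sources used here. Members and lists were chosen with earlier results of these data known.

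Counts were analysed with R 4.3.3 and edgeR 4.0.16: filterByExpr (minimum count 10), TMM, 4 group means over all 12 libraries, quasi-likelihood tests of 5 contrasts, Benjamini-Hochberg adjustment over 12406 genes and a threshold of 0.05. The SE is the size of the log2 fold change over the square root of F. Differences within experiments use log2 CPM with a prior count of 2. The tests of experiment and of state by experiment used the same filter and scaling. Alternatives were the replicate block, DESeq2 1.42.0 and its size factors, no filter or a mean count of at least 50, only the libraries of a contrast, and left-out libraries or experiments. Libraries are paired by the labelled experiment and batch. Deviations from group means correlated at 0.225 to 0.789 over 18 pairs of the same experiment, mean 0.526. Over 36 other pairs the mean was -0.259 and the highest value 0.312, so both ranges overlap. Deviations of a gene within a group sum to 0, which ties the mean over other pairs to that of the same experiment. The negative mean is thus no independent comparison. Named genes were all 40 members, Stag2 and, from each other list and contrast, at most 2 called genes a direction. The fits were tested on simulated data. Gene lengths and overlaps came from GENCODE M21 (GRCm38). Library totals speak to counting error only, since PCR copies are not independent molecules.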

Additional observations from a re-analysis of the deposited data

Results flagged for a closer look

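The effect of quiescence differed between experiments for 25 of the 40 members, in a test chosen after the values were seen. Each value here is the effect in experiment 9 minus that in experiment 5, in log2 units, from edgeR over both hairpins. Among transcription factors it was -1.94 for Atf3, -1.73 for Atf4, -2.54 for Atf5 and -2.75 for Ddit3. Among effectors it was -3.40 for Trib3, -2.74 for Chac1, -2.02 for Ppp1r15a and -1.52 for Eif4ebp1. For the enzymes of asparagine and serine synthesis it was -2.18 for Asns, -2.89 for Psat1, -1.49 for Phgdh and -2.66 for Psph. For one-carbon enzymes it was -1.30 for Shmt1, -2.13 for Shmt2, -2.75 for Mthfd2, -1.35 for Mthfd1l and -4.26 for Aldh1l2. For carriers it was -1.57 for Slc7a1, -4.69 for Slc7a3, -2.67 for Slc7a5, -2.83 for Slc7a11, -0.91 for Slc3a2, -2.07 for Slc1a4, -1.76 for Slc1a5 and -0.71 for Slc38a2. In all 25 the quiescent level stood lower against the proliferating one in experiment 9 than in experiment 5.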

How the results depend on the processing

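With the replicate block, called members numbered 10 for quiescence in control cells and 12 in knockdown cells, in place of 6 and 6, and it changed no count for the knockdown contrasts or the interaction. Without the 4 libraries of experiment 7 these counts were 0 and 2, and without those of experiment 9 they were 2 and 1. The experiment test called 14 members with the DESeq2 likelihood ratio test in place of 8, 4 without experiment 5, 5 without experiment 7 and 4 without experiment 9. State by experiment called 5 without experiment 5 and 14 without experiment 9, in place of 25; its 25 genes were all called with DESeq2 size factors, no filter, a mean count of at least 50 and the DESeq2 likelihood ratio test. Leaving out 1 library at a time gave 2 to 8 members for quiescence in control cells, 2 to 7 in knockdown cells and 2 to 22 for experiment. Shares of all tested genes are not given for these counts, the quiescence counts without a whole experiment or the other experiment-test runs. For state by experiment it gave from 11 members (27.5%, against 0.768% of all genes) to 29 (72.5%, against 19.2%). The median for knockdown in proliferating cells ran from -0.68 to -0.07. Size factors, other filters, the DESeq2 Wald test and only the libraries of the contrast kept the contrasts' counts within 1.5 times, and no called member reversed direction in any alternative run. Fits with left-out libraries or experiments have fewer samples; other causes were not tested. With 3 libraries a group the SE of the knockdown effect reached 0.935 for Aldh1l2, and the lowest count of Slc7a3 was 25.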
